A study of Homo sapiens with 18 samples.

Results

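Semaphorins, ephrins and their receptors are the guidance genes described here. A gene belonged to the set when its symbol was that of a semaphorin of classes 3 to 7, a plexin, a neuropilin, an ephrin or an Eph receptor, and 53 of the 19849 genes in the expression table did. The rule used symbols alone and no measured value. Of these 53 genes, 28 encode ligands (20 semaphorins and 8 ephrins) and 25 encode receptors (9 plexins, 2 neuropilins, 9 EphA and 5 EphB receptors). They were followed across 6 groups of 3 arrays each, made from the human non-small cell lung cancer lines A549, HCC827 and NCI-H358. In each line, parental cells grown without added TGFβ were compared with mesenchymal derivatives in which epithelial-mesenchymal transition (EMT) had been induced by continuous culture with 2 ng/ml TGFβ. The labels give 3 weeks of TGFβ for every line, but according to the methods A549 was treated for 2 to 3 weeks and the other lines for 3 to 5 weeks. All cells were cultured in the same serum-containing medium, and the treated cells were moved to medium lacking TGFβ on the day before lysis. The study describes the 3 samples of a group as separate biological samples made at the same time, so p values measure the spread between such samples and not between rounds of treatment.

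Semaphorins were first described as cues that steer growing axons, and they also act on epithelial and endothelial cells. Class 3 semaphorins are secreted and mostly bind a neuropilin that is held in a complex with a plexin of the A class, while SEMA3E binds PLXND1 directly. Classes 4 to 6 span the membrane, SEMA7A is tethered by a lipid anchor, and these forms bind plexins at short range. Ephrins and Eph receptors both sit on cell surfaces and meet where cells touch. A-type ephrins are lipid-anchored and prefer EphA receptors, and B-type ephrins span the membrane and prefer EphB receptors, with EPHA4 binding both types. Signals run into the receptor-bearing cell and, in the reverse direction, into the ephrin-bearing cell, and they commonly change adhesion to neighbouring cells and the actin cytoskeleton.

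The values are RMA-normalized log2 levels from Affymetrix U133 Plus 2.0 arrays, and each gene is read by 1 probe set. A difference of 1 on this scale is a 2-fold difference in level. Levels of different genes are not compared with each other, because probe sets differ in how strongly they bind. Whether a probe set was above background was not assessed, so where the lower group is near the low end of the table, as are PTPRC and the endothelial gene CDH5 with group means of 2.83 to 4.29, a fold is that of the deposited values and the true one may be larger. A gene was called higher or lower when its limma Benjamini-Hochberg adjusted p, corrected over all 19849 genes, was below 0.05 and its fold difference was above 2. Array medians lay between 6.31 and 6.47, and each of the 18 arrays correlated best with an array of its own group. The labels were checked with EMT markers. CDH1 (E-cadherin) had a log2 change of -5.81, -2.95 and -3.94 in A549, HCC827 and NCI-H358, lower in each, and CDH2 (N-cadherin) rose by 1.94, 3.26 and 2.04. For VIM the log2 change was 0.79, 2.03 and 2.31, and for ZEB1 it was 0.79, 4.18 and 3.66. For SNAI1 it was 0.52, 0.85 and 0.92. The A549 values of VIM and ZEB1 and all 3 of SNAI1 thus stayed below 2-fold. VIM had group means between 3.55 and 6.37, and whether its probe set limited these changes was not assessed. Of 6 epithelial markers, 3, 6 and 6 fell in the respective lines. The lung lineage gene NKX2-1 had parental mean log2 levels of 3.67, 9.18 and 8.62 in the same order of lines, and it fell in NCI-H358, with a log2 change of -1.06. NAPSA, another lung marker, fell in HCC827, with a change of -4.71, and the lung surfactant genes SFTPB and SFTPC lay between 5.57 and 6.74 in all 6 groups. Markers of other cell types were also read. Of 6 fibroblast markers, 2, 3 and 2 rose in A549, HCC827 and NCI-H358, COL1A1 and LUM in every line. The log2 of the list's summed level went from between 9.02 and 9.20 to between 11.98 and 12.04 in A549. It went from between 8.74 and 9.05 to between 12.76 and 12.88 in HCC827, and from between 9.78 and 9.85 to between 12.78 and 12.87 in NCI-H358. COL1A1 alone had mesenchymal means of 11.93, 12.67 and 12.50 in these lines, so the summed mesenchymal level is mostly that of COL1A1. COL1A2 rose by 2.11 in HCC827, with changes of 0.21 and 0.71 in A549 and NCI-H358. The log2 change of PDGFRB was 0.14, 0.88 and 0.71, that of DCN 0.45, 0.56 and 0.16, and that of THY1 0.38, -0.20 and 0.22 in A549, HCC827 and NCI-H358, none of them called. No endothelial (3 listed) or immune marker (4 listed) was called by limma, PTPRC lying at 2.83 to 3.18 in every group. Of 3 neuron markers, RBFOX3 fell in A549, with a log2 change of -1.75, and the others were not called. The part of these markers in the results was not tested. In bulk samples such as these, fewer cells of a type and less RNA per cell cannot be told apart.

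Which guidance genes changed upon EMT was asked first. In mesenchymal A549 cells, 10 of the 53 genes were higher and 2 were lower than in parental cells. Over all genes of the table, 4.15% were called higher and 3.87% lower in this comparison. In HCC827, 9 guidance genes were higher and 8 were lower, against 4.89% and 6.58% of all genes. In NCI-H358, 9 were higher and 9 were lower, against 3.96% and 5.42% of all genes. Calls in A549 were thus mostly toward higher levels, and those in the other lines were split about evenly. As a share of the 53 genes, the called genes made up 22.6%, 32.1% and 34.0%, beside 8.02%, 11.5% and 9.38% of all genes in the respective lines. The share lay above that of all genes in each line, a description that was not tested. At the study's stricter thresholds, an adjusted p below 1e-05 and a fold above 5, limma called 4 guidance genes higher and 0 lower in A549, beside 1.17% and 0.736% of all genes (1.90% together). In HCC827 it called 2 higher and 3 lower, beside 1.32% and 1.63% (2.95% together). In NCI-H358 it called 3 higher and 0 lower, beside 0.811% and 1.36% (2.17% together). Both counts of 0 were also 0 with an unadjusted p below 0.05 at that fold and in the methods' t-test. They could not differ, because the largest decreases were 2.94-fold in A549 (EFNA5) and 4.55-fold in NCI-H358 (EFNA1). In all, 25 genes were called in at least 1 line, and 28 were called in none. Of the 53 genes, 16 had a highest group mean below the table's median of 6.39, and EPHA5 was the only called gene among these dim ones.

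**Figure D1:**
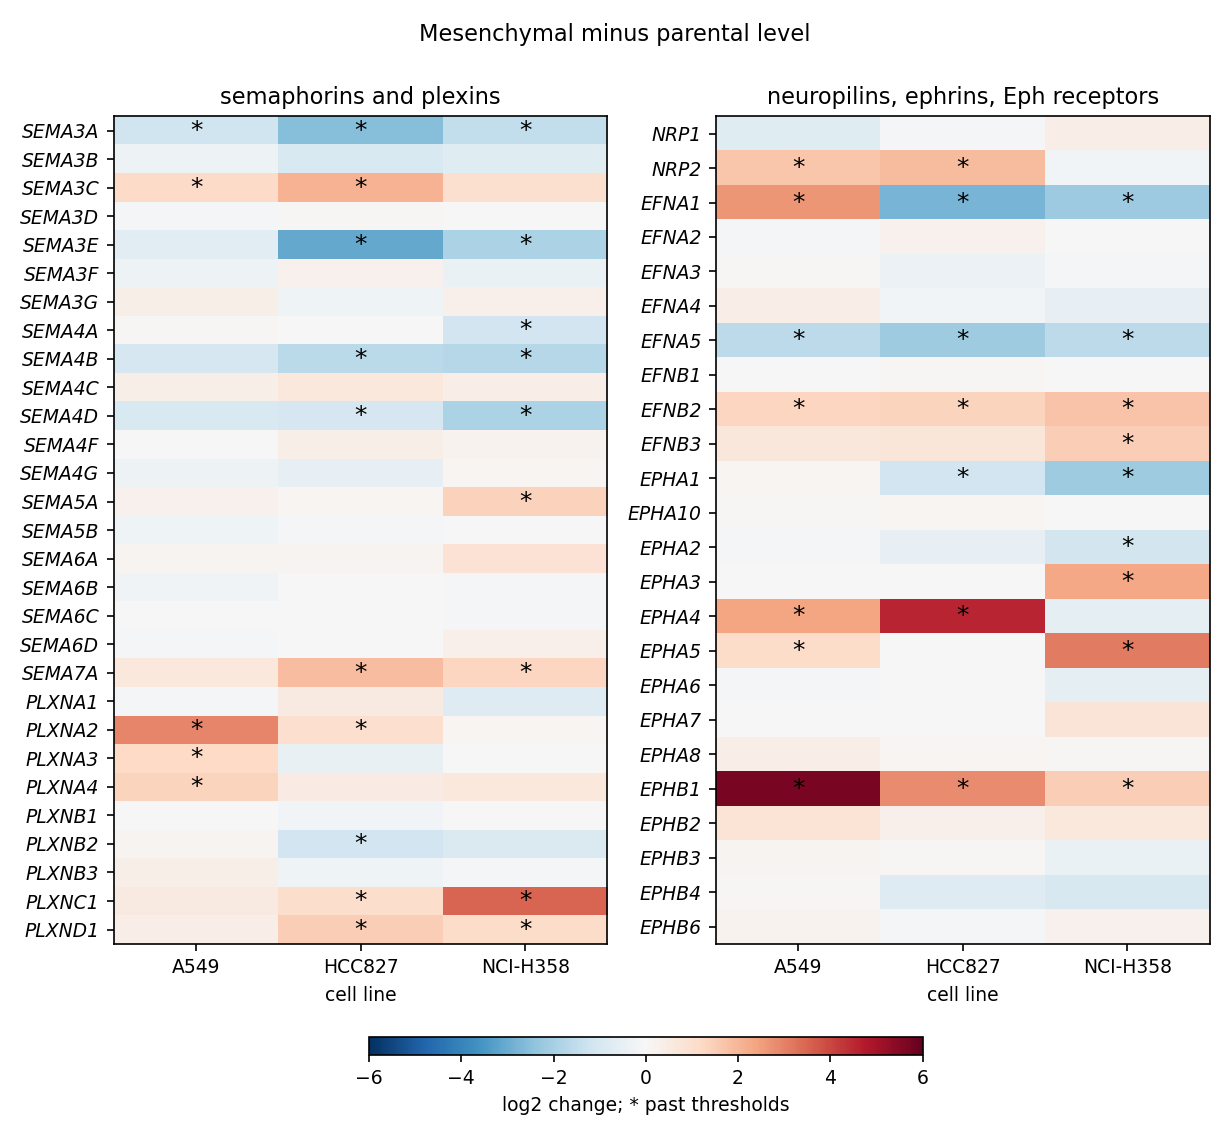
Log2 change in level, mesenchymal minus parental mean (n = 3 arrays each), of all 53 guidance genes (rows) in the 3 cell lines (columns), with red for higher and blue for lower in mesenchymal cells and a star for a gene past both thresholds. EPHB1 carries the deepest red at 5.67 in A549, EFNA1 turns from red in A549 to blue in HCC827 and NCI-H358, and most rows stay pale in all 3 lines.

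Ligands and receptors were then counted apart. Among the 25 receptors, 7 rose in A549, 6 rose and 2 fell in HCC827, while NCI-H358 had 5 up and 2 down. Among the 28 ligands, 3 rose and 2 fell in A549, 3 rose and 6 fell in HCC827, and 4 rose and 7 fell in NCI-H358. Receptors were thus called higher more often than lower in each line. Called ligands were mostly lower in HCC827 and NCI-H358 and were nearly balanced in A549. The whole table also leaned lower for HCC827 (4.89% of genes higher, 6.58% lower) and for NCI-H358 (3.96% higher, 5.42% lower). The ligands therefore leaned the same way as the table there, and the receptors the other way. For A549 the shares of all genes were 4.15% higher and 3.87% lower. In A549, limma called 0 of the 25 receptors lower, and the methods' t-test also called 0. No receptor there fell by 2-fold, so the p value of either test could not alter this count. The only receptor with a lower level and an unadjusted limma p below 0.05 was NRP1 at -0.71. At the table's share of 3.87% lower, few lower calls would be seen among 25 genes, so this count of 0 says little. The median log2 change of the receptors was 0.22, 0.0031 and 0.047 in A549, HCC827 and NCI-H358. That of the ligands was -0.0084, -0.018 and -0.031, and for all genes it was -0.021, 0.0051 and 0.015. The median gene of either kind therefore lay near the median of the table, apart from the receptors in A549, and the counts reflect a minority of genes with large changes. The difference between ligands and receptors was not tested.

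**Figure D2:**
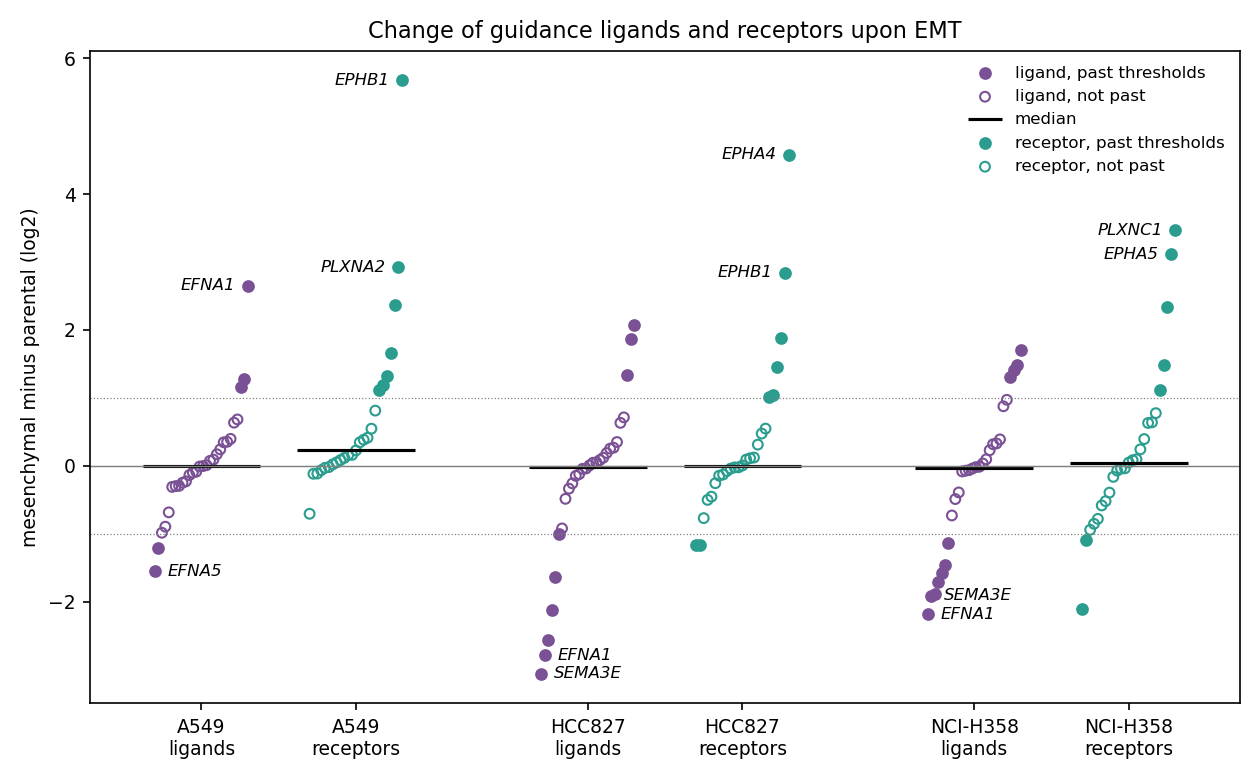
Each point is the log2 change (mesenchymal minus parental mean, n = 3 arrays each) of 1 of the 28 ligand or 25 receptor genes in 1 cell line, ordered by value, with filled points past both thresholds, dotted lines at a 2-fold difference and a bar at the median. The highest points are receptors in every line (EPHB1 at 5.67, EPHA4 at 4.58, PLXNC1 at 3.47), and the lowest are ligands (EFNA5 at -1.56, SEMA3E at -3.06, EFNA1 at -2.19).

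EPHB1 and EFNB2, a receptor and a ligand of the B class, were the guidance genes that rose in all 3 lines, a pattern called for 0.761% of all genes. EFNA5 and SEMA3A fell in all 3 lines, a pattern called for 0.907% of all genes. EFNA1 was called in all 3 lines in opposite directions, and 0.937% of all genes had opposite calls in any pair of lines. The 250 bases upstream of the start of the genes are shown for the ephrins and the Eph receptor of this group, as the promoters of the genes that changed in every line. They are taken from RefSeq (GRCh38.p14) and written 5′ to 3′ along the gene, and a promoter for SEMA3A is not shown. The EPHB1 window is chr3:134795010-134795259 on the forward strand, that of EFNB2 chr13:106535663-106535912 on the reverse strand, that of EFNA5 chr5:107670938-107671187 on the reverse strand and that of EFNA1 chr1:155127626-155127875 on the forward strand. Capitals mark a match to CACCTG, the E-box that ZEB and SNAI family factors are known to bind.
EPHB1: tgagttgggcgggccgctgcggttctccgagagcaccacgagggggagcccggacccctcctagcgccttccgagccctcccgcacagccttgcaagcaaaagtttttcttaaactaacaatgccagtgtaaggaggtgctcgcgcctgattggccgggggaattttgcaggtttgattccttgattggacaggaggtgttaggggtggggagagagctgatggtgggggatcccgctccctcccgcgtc
EFNB2: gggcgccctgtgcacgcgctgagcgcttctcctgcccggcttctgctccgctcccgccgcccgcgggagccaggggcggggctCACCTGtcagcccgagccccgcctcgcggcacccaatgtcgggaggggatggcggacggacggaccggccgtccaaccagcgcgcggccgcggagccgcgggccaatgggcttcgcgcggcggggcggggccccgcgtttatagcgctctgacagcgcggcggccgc
EFNA5: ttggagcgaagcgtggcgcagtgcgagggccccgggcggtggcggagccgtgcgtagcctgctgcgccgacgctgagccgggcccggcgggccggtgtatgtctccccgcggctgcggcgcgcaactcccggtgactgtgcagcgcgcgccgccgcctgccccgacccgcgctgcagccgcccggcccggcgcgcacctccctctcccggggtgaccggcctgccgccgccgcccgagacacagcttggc
EFNA1: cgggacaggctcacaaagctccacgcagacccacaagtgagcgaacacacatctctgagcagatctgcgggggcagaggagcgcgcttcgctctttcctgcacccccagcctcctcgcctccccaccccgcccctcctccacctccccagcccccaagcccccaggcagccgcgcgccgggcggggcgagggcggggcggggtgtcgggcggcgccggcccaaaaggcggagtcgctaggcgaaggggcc
CACCTG or its reverse complement CAGGTG was in the EFNB2 window 1 time and in none of the other windows shown. It was in 17.5% of all 35116 such windows, and in 12 of the 74 windows of guidance genes, which belonged to 11 of the 47 genes that had a window. CAGACA, a box bound by SMAD proteins, or its reverse complement TGTCTG was in 13.6% of all windows and in 8 of the 74. The shares in guidance gene windows were thus close to those in all windows. The windows shown were richer in G and C (60.8% for EPHB1, 78.4% for EFNB2, 79.6% for EFNA5 and 73.2% for EFNA1) than the median window, at 58%.

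EPHB1 encodes a receptor for B-type ephrins. Its log2 level was 3.32, 3.68 and 3.58 on the parental A549 arrays and 9.16, 9.23 and 9.22 on the mesenchymal ones. In HCC827 it went from 3.53, 3.45 and 3.37 to 6.09, 6.27 and 6.53, and in NCI-H358 from 5.95, 6.01 and 5.70 to 7.45, 7.38 and 7.29. The groups did not overlap in any line. The increase of 5.67 ± 0.11 (SE) in A549 was the largest change of any guidance gene, a 51.0-fold difference (limma adjusted p = 4.02e-16) from a parental level near the low end of the table. HCC827 followed with 2.84 (limma adjusted p = 1.49e-12) and NCI-H358 with 1.48 (adjusted p = 8.13e-09). Parental NCI-H358 cells exceeded parental A549 cells by 2.36 in log2 level, and the line with the highest parental level had the smallest increase. The increase differed between every pair of lines, by -2.83 from A549 to HCC827, by -4.19 from A549 to NCI-H358 and by -1.36 from HCC827 to NCI-H358, each past both limma thresholds. These differences share the arrays of the lines they have in common.

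EFNB2 encodes a transmembrane ephrin that binds EphB receptors and EPHA4. Its log2 level was 4.97, 5.01 and 5.32 in parental and 6.39, 6.40 and 6.34 in mesenchymal A549. It was 6.97, 7.05 and 6.83 against 8.24, 8.11 and 8.52 in HCC827, and 8.39, 8.12 and 7.37 against 9.74, 9.63 and 9.60 in NCI-H358. Every mesenchymal array lay above every parental array of its line, although the parental NCI-H358 arrays spread over a full unit. The increases of 1.28, 1.34 and 1.70 (SE 0.18 each) had limma adjusted p values of 2.13e-05, 9.08e-06 and 7.18e-07. No difference between the lines' increases was called for EFNB2 by limma, whereas its parental level was higher in HCC827 than in A549 by 1.85 and in NCI-H358 than in A549 by 2.86.

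EFNA5 encodes a lipid-anchored ephrin that binds EphA receptors. Its log2 level was 9.43, 9.55 and 9.60 in parental A549 and 7.92, 7.98 and 8.01 in mesenchymal A549. In HCC827 it was 10.04, 9.44 and 9.53 against 7.45, 7.53 and 7.64, and in NCI-H358 it was 9.26, 9.17 and 9.29 against 7.75, 7.69 and 7.54. The 9 parental arrays were all above 9 and the 9 mesenchymal arrays were all below 8.1, so that the lines resembled each other both before and after EMT. The level fell in all 3 lines, with log2 changes of -1.56, -2.13 and -1.58 (SE 0.12 each) and limma adjusted p values of 8.98e-09, 1.05e-10 and 6.72e-09. No difference between the lines' decreases was called for EFNA5 by limma.

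SEMA3A encodes a secreted semaphorin that signals through NRP1 and A-class plexins. Its log2 level was 6.91, 6.54 and 6.68 in parental and 5.17, 5.45 and 5.85 in mesenchymal A549. It was 8.18, 7.93 and 7.75 against 5.46, 5.06 and 5.64 in HCC827, and 8.81, 8.87 and 9.10 against 7.57, 7.39 and 7.43 in NCI-H358. The groups did not overlap within a line. The level fell in each line, with log2 changes of -1.22, -2.57 and -1.47 (SE 0.17 each), and the limma adjusted p values were 1.39e-05, 1.02e-09 and 1.49e-06. Mesenchymal NCI-H358 cells still had a higher mean level (7.46) than parental A549 cells (6.71). The decrease was larger in HCC827 than in A549, with a difference of -1.35 (SE 0.24, limma adjusted p = 0.000183).

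EFNA1, the ephrin best known as a ligand of EPHA2, was the guidance gene with opposite calls. In A549 its log2 level was 7.80, 7.82 and 7.80 in parental and 10.34, 10.56 and 10.47 in mesenchymal cells. In HCC827 it was 9.59, 9.30 and 9.31 against 6.71, 6.49 and 6.63, and in NCI-H358 it was 9.54, 9.66 and 9.76 against 7.51, 7.50 and 7.39. The arrays of the parental and mesenchymal groups did not overlap in any line, and the 2 lines with the higher parental level were those in which the level fell. EFNA1 rose by 2.65 in A549, a 6.28-fold difference, and fell in the others, with log2 changes of -2.79 in HCC827 and -2.19 in NCI-H358 (SE 0.09 each). The limma adjusted p values were 2.03e-13, 9.03e-14 and 2.36e-12. The changes in HCC827 and NCI-H358 differed from that in A549 by -5.44 and -4.84, and the difference between HCC827 and NCI-H358 was not called by limma. EFNA3 and EFNA4 lie beside EFNA1 on chromosome 1 in RefSeq, with 0 protein-coding genes between neighbours. Their log2 changes were 0.072, -0.34 and -0.073 for EFNA3 and 0.40, -0.15 and -0.49 for EFNA4 in A549, HCC827 and NCI-H358, and neither gene was called.

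**Figure D3:**
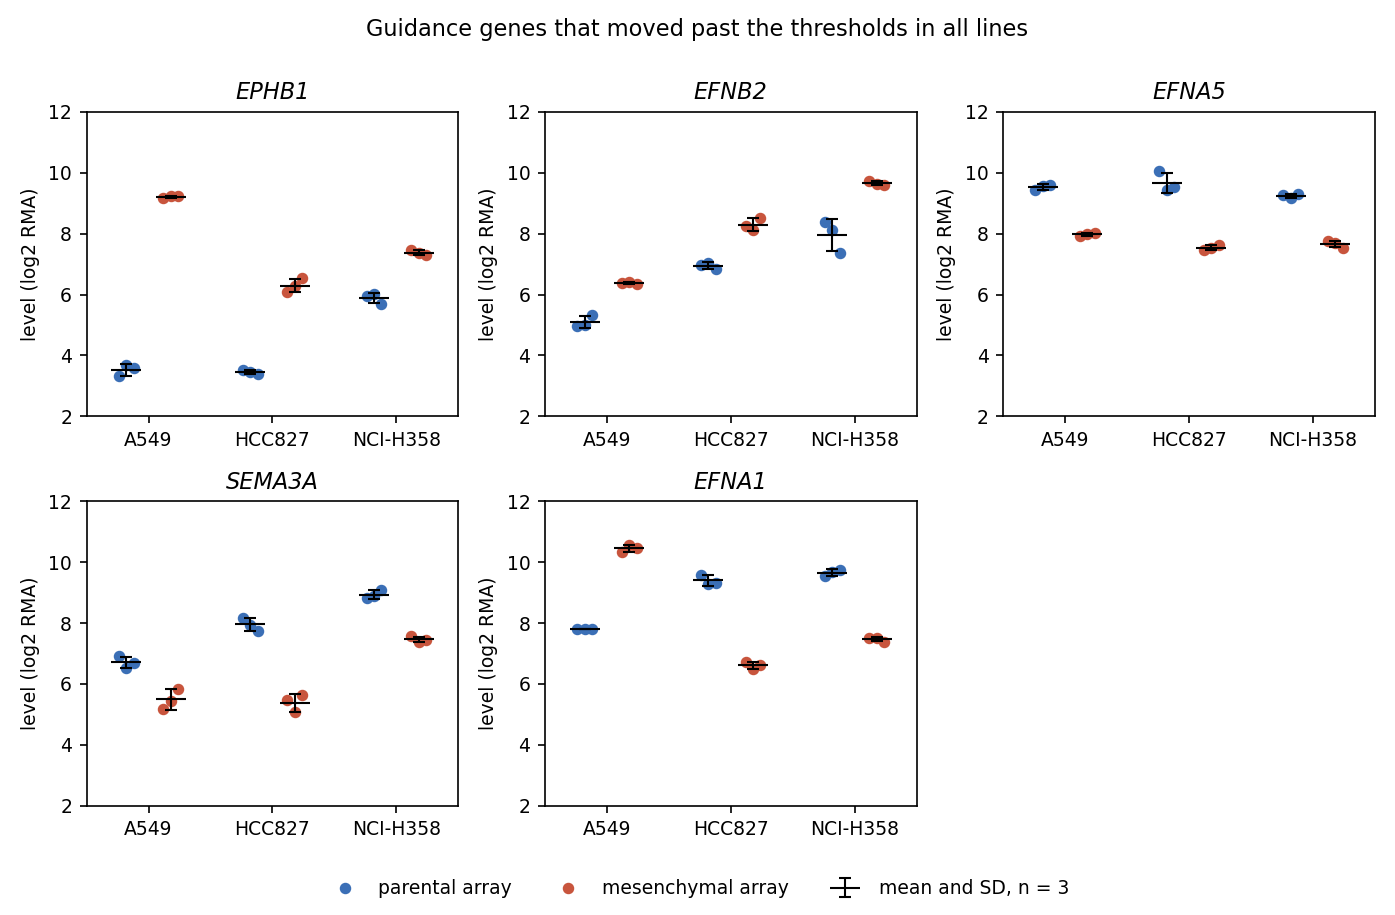
Log2 RMA level on each array (points) with the group mean and SD (n = 3, black) of the 5 guidance genes called in all 3 lines, in parental (blue) and mesenchymal (red) cells of each line. EPHB1 and EFNB2 are higher and EFNA5 and SEMA3A lower on all mesenchymal arrays of each line, and EFNA1 goes up in A549 and down in HCC827 and NCI-H358.

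The receptors with the largest changes differed from line to line. PLXNA2, a plexin that forms receptor complexes with neuropilins and also binds class 6 semaphorins, had log2 levels of 5.40, 5.43 and 5.48 in parental and 8.41, 8.35 and 8.30 in mesenchymal A549 cells. In HCC827 the levels were 5.15, 5.28 and 5.23 against 6.25, 6.23 and 6.23. In NCI-H358 they were 4.96, 4.85 and 4.76 against 4.98, 5.05 and 4.83, and the groups overlapped. PLXNA2 rose by 2.92 (SE 0.07) in A549, a 7.57-fold difference (limma adjusted p = 2.21e-15), and by 1.02 in HCC827 (adjusted p = 1.66e-09), while the change in NCI-H358 was 0.095 (adjusted p = 0.317). The increase in HCC827 was just over 2-fold, and without parental replicate 1 of that line it was 0.98 and no longer called. The changes in NCI-H358 and A549 differed by -2.82.

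EPHA4 encodes the Eph receptor that binds ephrins of both types. Its log2 level was 3.51, 3.34 and 3.04 in parental and 5.66, 5.95 and 5.39 in mesenchymal A549. In HCC827 it was 4.15, 4.12 and 4.02 against 8.66, 8.72 and 8.64, the largest change of a guidance gene in that line. In NCI-H358 it was 6.64, 6.59 and 6.57 against 5.94, 5.97 and 6.13. The groups were apart in every line, with the mesenchymal arrays higher in A549 and HCC827 and lower in NCI-H358. EPHA4 rose by 2.37 (SE 0.12, limma adjusted p = 6.4e-11) in A549 and by 4.58 in HCC827 (adjusted p = 1.06e-14), a 23.9-fold difference from a low parental level, and the change of -0.58 in NCI-H358 (adjusted p = 0.00082) was below 2-fold. The change differed between all pairs of lines, most between NCI-H358 and HCC827, at -5.16. Parental NCI-H358 cells had a level higher than parental A549 cells by 3.30.

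EPHA5 and EPHA3 bind A-type ephrins and are best known in the developing nervous system. EPHA5 had log2 levels of 3.71, 3.64 and 3.77 in parental and 4.64, 4.98 and 4.85 in mesenchymal A549, and of 2.94, 3.27 and 2.84 against 5.91, 6.16 and 6.32 in NCI-H358. In HCC827 they were 2.47, 2.56 and 2.63 against 2.48, 2.54 and 2.53. EPHA5 thus rose in A549 by 1.12 (SE 0.12, limma adjusted p = 4.51e-07) and in NCI-H358 by 3.11 (adjusted p = 8.39e-13), whereas the change in HCC827 was -0.041 (adjusted p = 0.816). EPHA3 rose in NCI-H358, from 5.74, 6.05 and 6.16 to 8.42, 8.38 and 8.17, an increase of 2.34 (SE 0.14, limma adjusted p = 3.31e-10). On the A549 arrays its log2 level was 2.89, 2.33 and 2.36 in parental and 2.59, 2.66 and 2.40 in mesenchymal cells. On the HCC827 arrays it was 2.55, 2.31 and 2.28 against 2.43, 2.35 and 2.37. In these lines the groups overlapped, and the changes were 0.021 and 0.0031. The EPHA3 means in A549 and HCC827 (2.38 to 2.55) and the EPHA5 means in HCC827 (2.51 and 2.55) lay at the low end of the table. Whether the genes were measurable there was not assessed, so these small changes need not show a lack of response. The change of EPHA3 in NCI-H358 differed from that in A549 by 2.32 and from that in HCC827 by 2.34.

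PLXNC1 encodes a receptor of SEMA7A and had the largest change of a guidance gene in NCI-H358. Its log2 levels there were 5.23, 5.60 and 5.83 in parental and 9.05, 8.95 and 9.07 in mesenchymal cells. In HCC827 they were 7.61, 7.50 and 7.39 against 8.30, 8.49 and 8.84. In A549 they were 3.80, 3.92 and 4.02 against 4.55, 4.38 and 4.44. Mesenchymal arrays lay above parental arrays in each line. The increase was 3.47 in NCI-H358, an 11.1-fold difference (SE 0.14, limma adjusted p = 1.7e-12), and 1.04 in HCC827 (limma adjusted p = 5.61e-06). The change in A549 of 0.55 (limma adjusted p = 0.00348) was below 2-fold. The parental A549 mean of 3.91 was near the low end of the table, so the true change there may be larger. Without parental replicate 3 or mesenchymal replicate 3 of HCC827 the value there was 0.99 or 0.90 and was not called. Its ligand gene SEMA7A rose in the same lines, by 1.87 in HCC827 and 1.31 in NCI-H358, and its change in A549 was 0.63.

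SEMA3E, the secreted ligand of PLXND1, had log2 levels of 7.35, 6.84 and 6.95 in parental and 4.01, 3.94 and 4.01 in mesenchymal HCC827 cells. In NCI-H358 they were 5.84, 5.57 and 6.25 against 3.97, 3.85 and 4.09, and in A549 they were 4.96, 4.59 and 4.52 against 4.09, 3.89 and 4.02. The parental groups stood at different levels, and the 3 mesenchymal groups all had means near 4.0, near the low end of the table, so that the sizes of the decreases and of their differences between lines follow the parental levels. SEMA3E fell in HCC827, with a log2 change of -3.06 (SE 0.16, limma adjusted p = 4.08e-11), an 8.33-fold difference. In NCI-H358 it fell as well, at -1.91 (adjusted p = 2.3e-08 in limma), and the A549 change of -0.69 (adjusted p = 0.00169) was below 2-fold. The probe set of SEMA3E is of the x_at kind, which can also bind related transcripts. The gene of its receptor, PLXND1, rose by 1.46 in HCC827 and 1.12 in NCI-H358 and had a change of 0.38 in A549. SEMA3E and SEMA3A are neighbours on chromosome 7 with 0 protein-coding genes between them in RefSeq, and SEMA3D follows with 0 between. The log2 change of SEMA3D was -0.088, 0.084 and -0.041 in A549, HCC827 and NCI-H358.

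**Figure D4:**
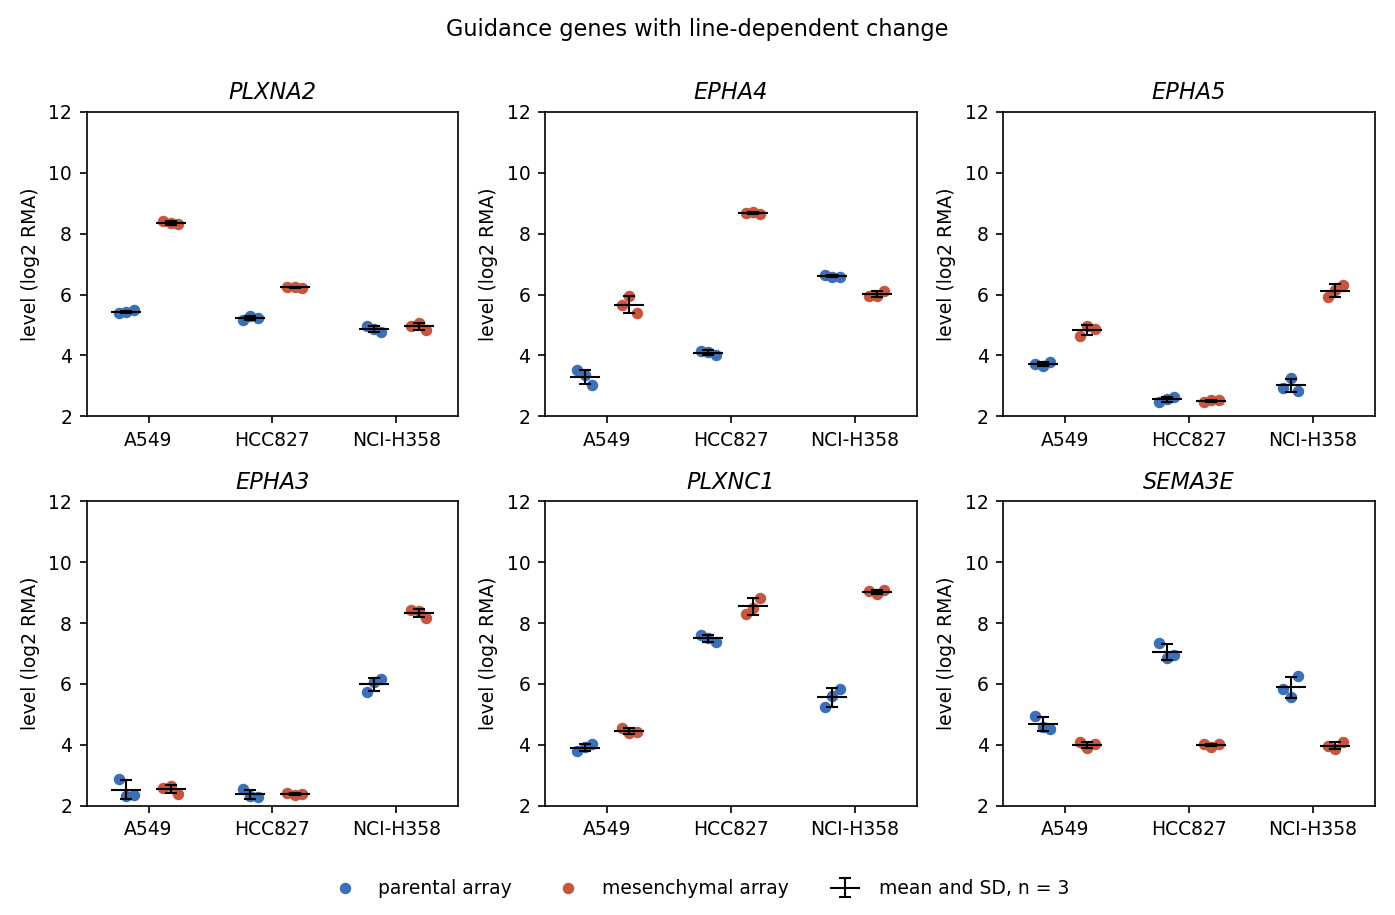
Log2 RMA level on each array (points) with the group mean and SD (n = 3, black) of 6 guidance genes with large changes in some lines, in parental (blue) and mesenchymal (red) cells. EPHA3 is high in NCI-H358 alone, EPHA4 rises in A549 and HCC827 but not in NCI-H358, and SEMA3E ends near 4.0 in all 3 mesenchymal groups.

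Other ligands were called in 1 or 2 lines. SEMA3C, a secreted semaphorin that binds NRP1 and NRP2, rose by 1.16 in A549 and 2.07 in HCC827, and its change in NCI-H358 was 0.97 (limma adjusted p = 4.71e-08), just below 2-fold. It was thus the secreted semaphorin with higher mean levels in all 3 mesenchymal derivatives, where SEMA3A and SEMA3E had lower ones. SEMA4B and SEMA4D, transmembrane semaphorins of which SEMA4D binds B-class plexins, fell in HCC827, with log2 changes of -1.64 and -1.004, and in NCI-H358, with -1.71 and -1.89. Their changes in A549 were -0.99 and -0.90, so that SEMA4B lay nearest to the fold threshold from outside in that line. SEMA4D in HCC827 was the gene nearest to it from inside, and the call was lost without parental replicate 1 (-0.93) or mesenchymal replicate 2 (-0.94) of that line. SEMA4B became called in A549 without parental replicate 3, mesenchymal replicate 2 or mesenchymal replicate 3, at -1.02, -1.01 and -1.01. In NCI-H358, EFNB3 rose by 1.48 and SEMA5A by 1.40, and SEMA4A fell, with a change of -1.14. In all, 16 ligands, among them EFNB1 with changes of -0.0051, 0.051 and -0.015, were called in no line.

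Among the other receptors, NRP2, the neuropilin that binds SEMA3C and SEMA3F, rose by 1.66 in A549 and by 1.89 in HCC827, and its change in NCI-H358 was -0.16 (limma adjusted p = 0.151). Its mean log2 level was 6.67, 6.59 and 6.66 in the parental cells and 8.34, 8.47 and 6.50 in the mesenchymal cells of A549, HCC827 and NCI-H358. The lines thus started alike and ended apart, and the change in NCI-H358 differed from those in A549 and HCC827 by -1.82 and -2.05. NRP1, the other neuropilin, had changes of -0.71, -0.079 and 0.39 and was not called. PLXNA3 and PLXNA4, further A-class plexins, rose in A549 by 1.19 and 1.33. PLXNB2, a receptor of class 4 semaphorins, fell in HCC827, with a change of -1.17, and without parental replicate 1 of that line its change was -0.99 and was not called. EPHA1 fell in HCC827 and NCI-H358, with changes of -1.16 and -2.11, and its change in A549 was 0.12. EPHA2, the main EphA receptor of epithelial cells, fell in NCI-H358, with a change of -1.09, and its changes in A549 and HCC827 were -0.066 and -0.50. EPHB2 had changes of 0.81, 0.31 and 0.64 and EPHB4 of 0.049, -0.77 and -0.94, all below 2-fold, so that EPHB1 was the only called gene of the 5 EphB receptors. NRP1, EPHB2 and EPHB4 were among the 12 receptors called in no line.

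By family, calls are given beside the shares of all genes called higher and lower, 4.15% and 3.87% (A549), 4.89% and 6.58% (HCC827), 3.96% and 5.42% (NCI-H358). The 9 plexins gave 3 higher in A549, 3 higher and 1 lower in HCC827, and 2 higher in NCI-H358. The 12 transmembrane semaphorins gave 2 lower in HCC827, and 1 higher and 3 lower in NCI-H358. In A549 limma called 0 of the 12, with changes from -0.99 to 0.34. The 7 secreted semaphorins included 1 higher and 1 lower in A549, 1 higher and 2 lower in HCC827, and 2 lower in NCI-H358. Among the 5 A-type ephrins, all calls fell on EFNA1 and EFNA5, and among the 3 B-type ephrins on EFNB2 and EFNB3, both of which were called only higher. No A-type ephrin other than EFNA1 in A549 was called higher in any line.

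Whether the change depended on the line was tested as a difference of the changes in the same fit. Between HCC827 and A549 the change of 12 of the 53 genes differed past both thresholds, 4 ligands and 8 receptors, against 13.4% of all genes. Between NCI-H358 and A549 it differed for 16, 4 ligands and 12 receptors, against 12.7%. Between NCI-H358 and HCC827 it differed for 12, 5 ligands and 7 receptors, against 11.0% of all genes. At the stricter thresholds limma called 3, 5 and 4 of these differences, in the same order, beside 2.92%, 3.01% and 2.06% of all genes. At the 2-fold thresholds receptors therefore supplied more of the line differences than ligands in each pair. At the stricter thresholds this held for the pairs with NCI-H358, while HCC827 and A549 differed in 2 ligands and 1 receptor. Genes not named so far added PLXNA1, with a change of 0.55 in HCC827 and -0.78 in NCI-H358 and a difference of -1.33 (limma adjusted p = 2.11e-08). Over the 53 genes, the changes in A549 and HCC827 had a Pearson r of 0.574 and a Spearman rho of 0.546, those in A549 and NCI-H358 of 0.314 and 0.454, and those in HCC827 and NCI-H358 of 0.553 and 0.632. Between 35 and 36 of the 53 genes had the same sign in a pair of lines. These are descriptions across genes, which are not independent replicates, of arrays from a single study.

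The parental lines also differed in guidance genes before any treatment. Parental HCC827 and A549 differed in 12 guidance genes, 8 higher and 4 lower in HCC827, against 18.8% of all genes, 10.2% higher and 8.62% lower. Parental NCI-H358 and A549 differed in 23, of which 21 were higher in NCI-H358 and 2 lower, and 20.4% of all genes were called, 10.7% higher and 9.79% lower. Parental NCI-H358 and HCC827 differed in 16, 13 higher and 3 lower in NCI-H358, against 15.2% of all genes, 7.27% higher and 7.91% lower. As shares of the 53 genes these were 22.6%, 43.4% and 30.2%, the first of them near that of all genes. The stricter thresholds left 2, 5 and 3 genes (3.77%, 9.43% and 5.66%), beside 5.15%, 6.19% and 3.32% of all genes. There the share for HCC827 and A549 lay below that of all genes. Parental NCI-H358 cells thus had the higher level for most of the guidance genes that differed. EPHA3 was higher there than in A549 by 3.46, EPHA1 by 2.45, SEMA6D by 2.06 and SEMA5A by 1.66 on the log2 scale, while the differences of SEMA3C and NRP1 were -1.89 and -1.66. Parental HCC827 cells had a PLXNC1 level higher than A549 cells by 3.59 and a SEMA3E level higher by 2.36. These parental arrays also enter the changes given above.

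Genes that act with the guidance receptors were read from lists, whose counts stand beside the same shares of all genes (4.15% and 3.87%, 4.89% and 6.58%, 3.96% and 5.42%). Some counts, such as 1 of 34 effectors higher in NCI-H358, were no larger than these shares. Of 34 intracellular effectors of semaphorin and Eph signalling, 8 were higher and 3 lower in A549. HCC827 had 4 higher and 2 lower, NCI-H358 had 1 and 4. Their median log2 change was 0.35, 0.072 and 0.042, beside -0.021, 0.0051 and 0.015 for all genes. VAV3, a signalling protein that acts downstream of Eph receptors, fell in all 3 lines, with log2 changes of -3.06, -1.998 and -3.53. Of 16 partners of neuropilins and plexins, 1 was higher and 3 were lower in both A549 and HCC827, while NCI-H358 had 3 and 2, with medians of -0.12, -0.095 and 0.063. MST1R, a receptor tyrosine kinase of the MET family that associates with B-class plexins, fell in all 3 lines, with changes of -1.02, -1.70 and -2.91. Of 24 genes of the slit, netrin, RGM and FLRT guidance families, 4 were higher and 2 lower in A549. HCC827 had 3 and 4, NCI-H358 had 3 and 3, with medians of -0.017, 0.12 and 0.20. In this list NTN4, a secreted netrin-like protein of basement membranes, fell in all 3 lines, with changes of -4.42, -1.91 and -1.72 in A549, HCC827 and NCI-H358. FLRT2, a transmembrane ligand of UNC5 receptors, rose in all 3, by 3.14, 4.22 and 3.37.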

How the data were processed

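Expression was measured in 18 samples, 3 in each of 6 groups. The authors normalized the Affymetrix arrays by RMA and deposited log2 values of 19849 genes, each read by 1 probe set. How it was chosen is not given in the sources used here. RMA equalizes the distribution of signal between arrays, so a shift common to most genes is not seen. Guidance genes were found by symbol and grouped as ligands or receptors. All 18 arrays were fitted in limma 3.58.1 (R 4.3.3) with 6 groups and no covariate, p values were adjusted over all genes, and differences between lines were contrasts of the same fit. Precision is limited by having 3 arrays in a group, and an exact permutation test of 3 against 3 arrays could not give a two-sided p below 0.1. Values on each array are given for genes called in all 3 lines and for the 4 largest called changes in each line. Members and lists were chosen with earlier results of these data known. Promoter windows of 250 bases came from RefSeq. Steps were tested on simulated data. Alternatives were a separate fit per comparison, an intensity trend, centring of arrays, the methods' t-test, the study's thresholds, leaving out dim probe sets, and each array left out in turn. Other assays of the study were not analysed.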

Additional observations from a re-analysis of the deposited data

Results flagged for a closer look

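For 9 of the guidance genes described array by array, the change upon EMT differed between cell lines in limma's test of the difference itself. These genes were chosen from the same data by the size or pattern of their changes, so the count of 9 partly follows from that choice. In single pairs of lines the change differed for 13.4% (HCC827 and A549), 12.7% (NCI-H358 and A549) and 11.0% (NCI-H358 and HCC827) of all genes. For each of the 9 genes, only the largest difference is given, on the log2 scale, with its SE and limma adjusted p. For EFNA1 the change in HCC827 minus that in A549 was -5.44 (SE 0.12, adjusted p = 2.99e-14), and for EPHA4 the change in NCI-H358 minus that in HCC827 was -5.16 (SE 0.17, adjusted p = 1.2e-12). For EPHB1 the change in NCI-H358 minus that in A549 was -4.19 (SE 0.16, adjusted p = 2.03e-12), for PLXNA2 it was -2.82 (SE 0.10, adjusted p = 7.03e-13) and for PLXNC1 it was 2.92 (SE 0.19, adjusted p = 2.17e-09). For EPHA5 and EPHA3 the change in NCI-H358 minus that in HCC827 was 3.15 (SE 0.16, adjusted p = 1.91e-10) and 2.34 (SE 0.20, adjusted p = 6.32e-08). In HCC827 both of these genes lay at the low end of the table before and after EMT. Parental A549 cells also lay near the low end for PLXNC1, with a mean of 3.91. For SEMA3E and SEMA3A the change in HCC827 minus that in A549 was -2.37 (SE 0.22, adjusted p = 1.64e-07) and -1.35 (SE 0.24, adjusted p = 0.000183). With 3 arrays per group, single arrays were not tested for standing apart. Differences that involve the same line share its arrays.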

How the results depend on the processing

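The counts of called guidance genes moved by more than 1.5 times only under the study's thresholds, an adjusted p below 1e-05 and a fold above 5. The genes higher and lower were then 4 and 0 (A549), 2 and 3 (HCC827), 3 and 0 (NCI-H358). For the 0 lower genes in A549 and NCI-H358, 0 also had an unadjusted p below 0.05 at that fold in limma, and 0 passed in the methods' t-test. No decrease in these lines reached 5-fold, so these counts were fixed at 0 whatever the p value. Under the same thresholds the change differed for 3 genes between HCC827 and A549, 5 between NCI-H358 and A549 and 4 between NCI-H358 and HCC827, and the parental level differed for 2, 5 and 3 genes in the same order. Of 75 changes of called genes (25 genes in 3 lines), 75 kept their side of the thresholds in separate fits, with an intensity trend and in the methods' t-test. With arrays centred 73 did, and with the filter on dim probe sets 72 of the 72 left. Apart from the centring, these alternatives leave the log2 change as it was, so that only the adjusted p could move. Leaving out each array in turn gave 10 genes higher and 2 to 3 lower in A549. HCC827 had 8 to 9 and 6 to 9, and NCI-H358 had 9 to 10 and 9. It also gave 11 to 12, 15 to 18 and 10 to 13 genes for the differences of change, and 11 to 12, 20 to 24 and 15 to 17 for the parental levels. SEMA3C became called in NCI-H358 without mesenchymal replicate 3, at 1.03. Leaving out parental replicate 1 of HCC827 lost the calls of PLXNA2, PLXNB2 and SEMA4D in that line. No called change reversed its direction among these alternatives, and changes that were not called were not checked for this. No paired analysis was possible because the labels give no replicate numbers shared between groups.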
